A study of Mus musculus with 34 samples.

Results

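The genes described here encode parts of the sperm tail and of motile cilia, measured in the epididymal fat of mice. They are the genes whose current symbol begins with Cfap, Odf, Tekt, Spag, Dnah or Catsper followed by a digit, together with Ropn1l and Akap4. The rule found 61 genes on 71 probes, among 18617 genes with a symbol and 22879 features tested in all. They comprise 7 outer dense fibre genes (Odf), 2 fibrous sheath genes (Ropn1l and Akap4), 5 tektins (Tekt), 4 pore subunits of the sperm calcium channel (Catsper), 13 axonemal dynein heavy chains (Dnah), 9 sperm-associated antigens (Spag) and 21 cilia and flagella associated proteins (Cfap). The rule uses symbols and no measured value.

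The mice ate either a normal diet or a high fat diet over successive generations. HF4 mice were born to HF3 parents and HF3 mice to HF2 parents (HF2 was not analysed here), HF1 mice were the offspring of HF0, and HF0 mice were the offspring of STD mice, all 4 HF groups eating the high fat diet. The reversal groups HF4-REV, HF3-REV and HF1-REV came from the same parents as HF4, HF3 and HF1 and were given the normal diet, which STD mice also ate. The 34 arrays each compared 2 groups in 2 colours, mostly once in each dye orientation. RNA was extracted with Trizol in experiment 1 (12 arrays, all pairings of HF4, HF3, HF0 and STD) and with Qiagen reagents in experiment 2 (22 arrays, all pairings of HF4, HF3, HF1 and HF0, each HF group with its REV group, and HF0 with STD on 4 arrays). The sources used here leave out the number of animals in each extract. The p-values therefore measure only the spread between these extracts, which may be technical.

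A sperm tail is a motile cilium with added structures. Its core, the axoneme, is a ring of doublet microtubules around a central pair. Dynein heavy chains are the motors that slide the doublets, radial spokes and the central apparatus regulate them, and tektins and other inner proteins stabilise the doublet walls. Outer dense fibres and the fibrous sheath surround the axoneme in sperm but not in other motile cilia, and the CatSper channel admits the calcium that hyperactivates the tail. Fat cells carry no motile cilia. The epididymal fat pad lies against the epididymis and testis, whose cells make sperm and, in the efferent ducts, motile cilia.

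All values are log ratios on the scale the authors deposited, taken here as log2. Each is coded as Cy5 over Cy3 and turned to give the group named first over the other. The sources used here do not give the numerator dye, so a positive value stands for more RNA in the group named first only where the ratio was Cy5 over Cy3, and for less otherwise. On the other reading every sign, and with it every order, turns round, while the sizes stay. Intensities were not used here, so the level of a gene, or of a marker of the tissue, could not be checked.

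Some pairings of experiment 1 were at odds for these genes. If all pairings of 3 groups held the same RNA, the log ratios around the loop would sum to 0. Over the 61 genes the root mean square of that sum was 1.74 for HF3, HF0 and STD and 1.41 for HF4, HF3 and HF0 in experiment 1, against 0.681 and 0.629 over all features. The other 2 loops of experiment 1 gave 0.655 and 0.524, against 0.447 and 0.554 over all features. The 4 loops of experiment 2 lay between 0.405 and 0.700, against 0.393 to 0.434 over all features. Ropn1l shows the conflict: HF3 stood 4.85 and 5.22 over HF0 on the 2 arrays of that pairing, yet -0.39 and -0.32 over STD, while HF0 stood 0.53 and 0.17 over STD. On the 2 HF3 with STD arrays of experiment 1, before turning, the 61 genes correlated at 0.389 across genes, where a dye swap of 1 pair of RNAs gives a negative value, and all features correlated at 0.114. For HF1 with HF1-REV the 2 arrays correlated at 0.309 over all features and at -0.58 over the 61 genes. The cause was not tested. For most comparisons the counts and medians are also given without these pairings of experiment 1. For single genes, extracts, marker lists and figures they are mostly not given, and the fitted values there come from all pairings.

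**Figure D1:**
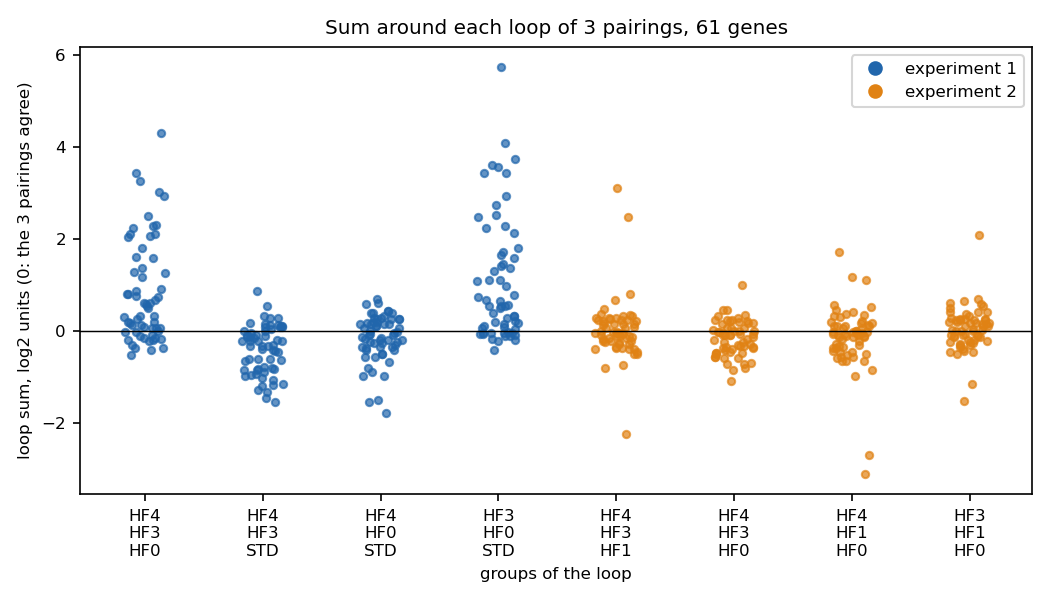
Sum of the log2 ratios around each loop of 3 pairings (vertical axis, log2 units; 0 means that the pairings agree) for the 61 genes, 1 point a gene, in the 4 loops of experiment 1 and the 4 of experiment 2 (horizontal axis). In the loop of HF3, HF0 and STD of experiment 1, 25 genes lay more than 1 from 0, against 2 to 5 genes in the loops of experiment 2. Of all features, 8.65% lay that far from 0 in the former and 2.48% to 3.13% in the latter.

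In HF4 against HF0, the families had medians of 1.98 (outer dense fibre), 3.26 (fibrous sheath), 1.18 (CatSper), 0.75 (Spag), 0.60 (Cfap), 0.54 (tektin) and 0.05 (dynein heavy chain). Differences between families were not tested. Of the 61 genes, 20 passed the test and all 20 were positive (limma, Benjamini-Hochberg adjusted p under 0.05, n = 2 extracts in each group), where 4.21% of all features passed (4.19% on the positive side). The genes that passed were Ropn1l, Odf2, Cfap299, Odf1, Cfap45, Spag6l, Cfap97d1, Tekt3, Odf3l1, Catsper2, Cfap36, Odf3, Dnah8, Cfap52, Cfap298, Catsper1, Spag1, Cfap57, Cfap97 and Catsper3. The median over the 61 genes was 0.60, with 0.51 in experiment 1 and 0.62 in experiment 2, and the median over all features was -0.03. In all, 51 genes were positive and 10 negative. On the arrays that held both groups, 33 of the 61 genes were positive on all 4 arrays and 0 were negative on all 4, while 9.82% of features were positive on all 4 and 5.36% negative. In bulk tissue such as this, more cells of a type and more RNA per cell cannot be told apart. Male germ cell markers moved with this result: 27 of 32 passed, with a median of 2.87, and their part in it was not tested.

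These calls rested on the experiment 1 pairings of HF3 with HF0 and of HF3 with STD. Without the pairing of HF3 with HF0 in experiment 1, 0 of the 61 genes passed in limma, and 31 were under an unadjusted p of 0.05. Without HF3 with STD 0 passed and 30 were under it, and without all 3 HF3 pairings of that experiment 0 passed and 28 were under it, all of them positive. Across all features 0, 1 and 0 then passed. Without HF4 with HF3 of that experiment alone, 19 of the 61 genes and 765 of all features passed. Without the 3 pairings the median over the 61 genes was 0.55, with Ropn1l at 4.08 and Odf2 at 3.63, and all 20 genes stayed positive under every setting tried. In limma without the 3 pairings the adjusted p was 0.337 for Ropn1l, 0.32 for Odf2 and 0.319 for Odf1, Tekt3 and Catsper1. The adjusted p of single genes given below come from the fit with all pairings. With each pairing taken as a replicate 34 of the 61 genes passed, and with each array as a replicate 38. Both settings treat values that may share extracts as independent. The share of all features that passed in them is not given here.

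**Figure D2:**
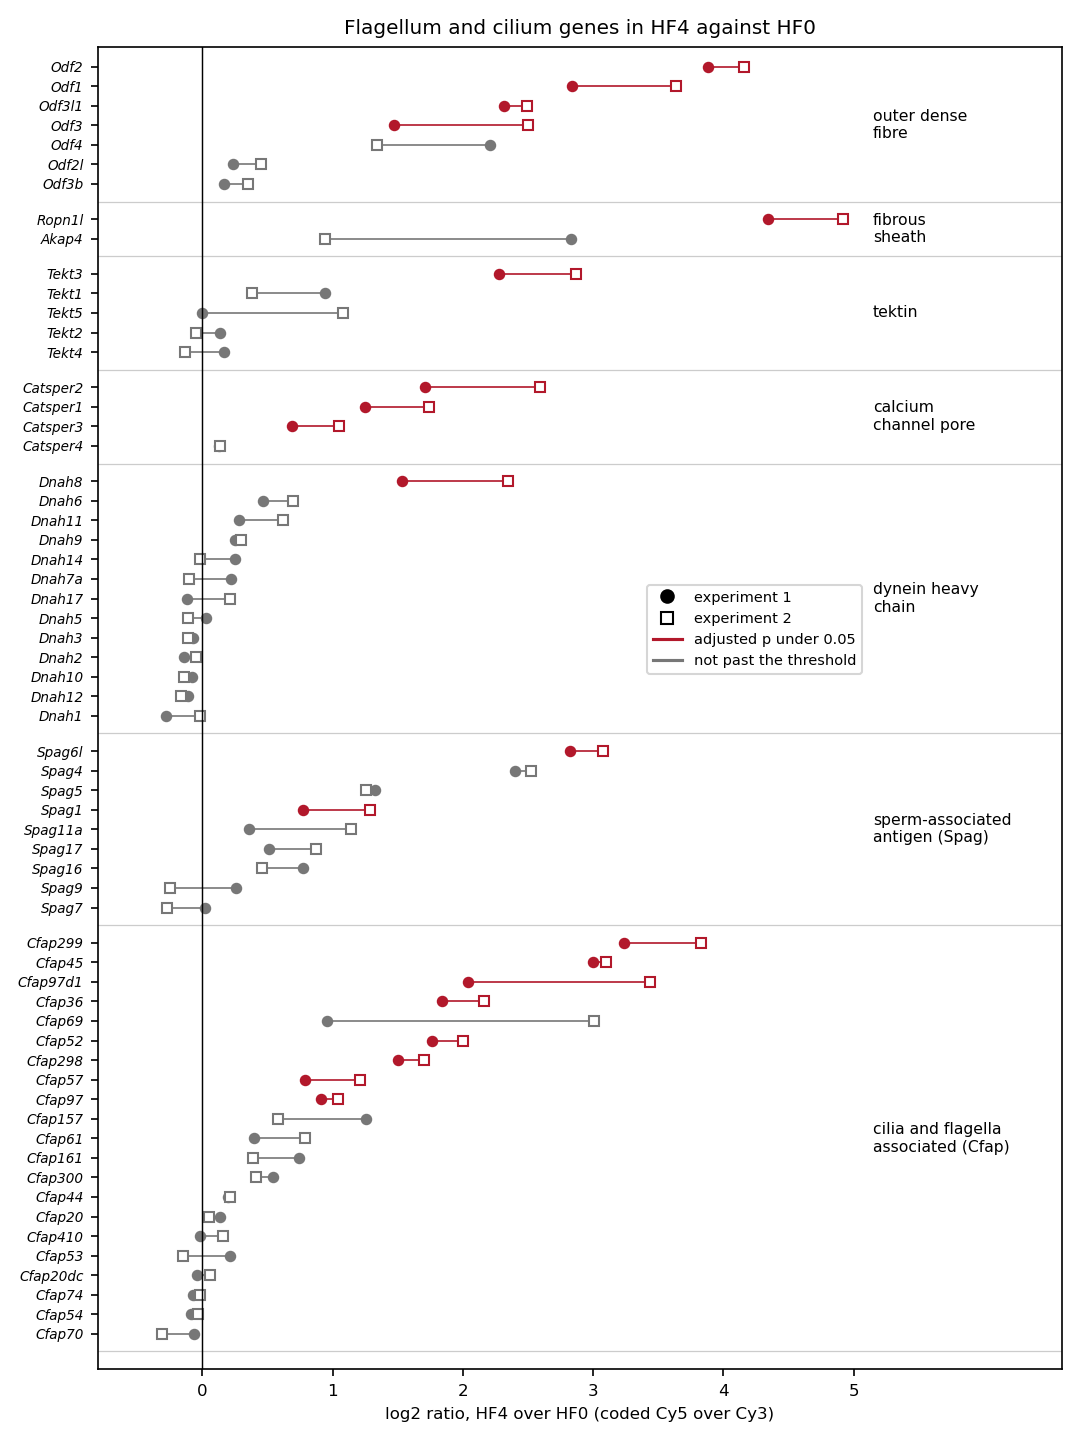
Log2 ratio of HF4 over HF0 (horizontal axis) for each of the 61 genes, grouped by family and ordered within it, in experiment 1 (filled circles) and experiment 2 (open squares). Red marks the 20 genes past an adjusted p of 0.05. All 20 are positive in both experiments, while 12 of the 13 dynein heavy chains did not pass and most of these lie close to 0.

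The promoters of 51 of the 61 genes were in the RefSeq table (GRCm38.p6, 250 bases before to 50 bases after each start, both strands searched), 62 promoters in all. Some genes have more than 1 promoter among these. The RFX motif GTTGCCA, a half-site of the RFX factors of ciliated cells, was in 16.1% of the 62 promoters (10) against 4.38% of all 32851 promoters. The full X-box, which can overlap that motif, was in 3.23% (2 promoters) against 0.451%. The cAMP response element TGACGTCA, bound by CREM in spermatids, was in 4.84% (3 promoters) against 1.79%. The FOXJ1 motif GTAAACA was in 4.84% (3 promoters) against 3.65%, and the MYB motif AACTGNC in 25.8% (16 promoters) against 12.8%. Of the 15 matched genes that passed in HF4 against HF0, 2 had the RFX motif, 1 the X-box, 1 the cAMP response element, 1 the FOXJ1 motif and 3 the MYB motif. Among all 51 matched genes these numbers were 9, 2, 3, 3 and 13, in the same order. Letters of a motif in a promoter are a description of the sequence and do not show that a factor binds there. The 5 promoters below are shown because they set genes that passed beside genes that did not pass although they hold the same motif. Capitals mark the motif, and each sequence runs 5′ to 3′ on the strand of its gene.
Cfap298 promoter, chr16:90934800-90935099, minus strand, X-box beginning 188 bases and RFX motif 61 bases before the start: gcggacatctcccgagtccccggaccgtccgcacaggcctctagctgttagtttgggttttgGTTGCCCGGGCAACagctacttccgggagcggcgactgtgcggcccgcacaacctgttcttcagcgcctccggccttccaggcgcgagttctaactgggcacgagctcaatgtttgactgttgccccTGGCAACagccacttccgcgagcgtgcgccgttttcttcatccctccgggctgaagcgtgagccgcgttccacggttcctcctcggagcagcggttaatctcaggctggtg
Odf3l1 promoter, chr9:56853765-56854064, minus strand, RFX motif 123 bases before the start: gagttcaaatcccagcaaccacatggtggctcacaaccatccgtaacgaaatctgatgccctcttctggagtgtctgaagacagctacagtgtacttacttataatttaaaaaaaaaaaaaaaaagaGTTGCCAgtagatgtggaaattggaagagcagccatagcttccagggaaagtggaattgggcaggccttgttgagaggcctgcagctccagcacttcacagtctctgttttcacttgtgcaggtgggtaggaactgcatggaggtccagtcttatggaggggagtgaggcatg
Cfap44 promoter, chr16:44394549-44394848, plus strand, RFX motifs 130 and 20 bases before the start: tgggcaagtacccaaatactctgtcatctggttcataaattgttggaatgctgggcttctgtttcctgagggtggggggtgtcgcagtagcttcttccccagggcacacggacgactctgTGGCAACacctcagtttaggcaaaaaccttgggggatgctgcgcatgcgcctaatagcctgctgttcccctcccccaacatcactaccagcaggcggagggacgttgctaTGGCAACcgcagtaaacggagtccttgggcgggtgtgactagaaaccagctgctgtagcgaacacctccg
Spag6l promoter, chr16:16829314-16829613, minus strand, cAMP response element 9 bases before the start: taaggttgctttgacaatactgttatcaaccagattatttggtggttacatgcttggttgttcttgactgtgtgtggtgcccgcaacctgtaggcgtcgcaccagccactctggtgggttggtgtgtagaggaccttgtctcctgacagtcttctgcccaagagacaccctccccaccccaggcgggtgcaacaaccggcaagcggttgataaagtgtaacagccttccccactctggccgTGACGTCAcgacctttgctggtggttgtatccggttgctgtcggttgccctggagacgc
Spag4 promoter, chr2:156064963-156065262, plus strand, cAMP response element 37 bases before the start: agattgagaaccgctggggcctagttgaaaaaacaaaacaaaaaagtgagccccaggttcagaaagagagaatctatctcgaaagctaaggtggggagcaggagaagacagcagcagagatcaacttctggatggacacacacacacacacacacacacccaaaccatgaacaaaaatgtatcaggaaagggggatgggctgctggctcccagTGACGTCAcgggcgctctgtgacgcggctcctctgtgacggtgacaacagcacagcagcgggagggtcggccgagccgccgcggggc
Cfap44, whose protein tethers the inner dynein arms, holds 2 RFX motifs and stood at 0.20 ± 0.11 (SE, adjusted p = 0.66, limma) in HF4 against HF0. Cfap298, an assembly factor of dynein arms, stood at 1.60 ± 0.24 (SE, adjusted p = 0.0191, limma) with the same motif. Spag4, a SUN domain protein that anchors the tail to the spermatid nucleus, stood at 2.46 ± 0.53 (SE, adjusted p = 0.0686, limma), and its difference did not pass.

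The outer dense fibre genes had a median of 1.98 in HF4 against HF0, and 4 of 7 passed. Odf2, a fibre protein that also builds appendages of centrioles, stood at 3.43 and 2.90 on the HF4 with HF0 arrays of experiment 1 and at 4.0 and 4.53 on those of experiment 2. All 4 arrays were well above 0, and the fitted value was 4.02 ± 0.45 (SE, adjusted p = 0.0101, limma). Odf1, the main fibre protein, had 2.46 and 2.26 on the experiment 1 arrays and 3.40 and 3.83 on the experiment 2 arrays. Its fitted value was 3.24 ± 0.26 (SE, adjusted p = 0.00693, limma). Odf3l1 (2.40 ± 0.18) and Odf3 (1.98 ± 0.38) also passed, with adjusted p = 0.00614 and 0.0449 in limma. Odf4 had a value of 1.77 ± 0.51 but an adjusted p of 0.189, and its 2 arrays of experiment 2 stood at 0.44 and 3.47. Odf3b, nearest to 0 in the family, stood at 0.12, 0.08, 0.21 and 0.55 on the 4 arrays and at 0.26 ± 0.15 in the fit (SE, adjusted p = 0.681, limma).

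Of the fibrous sheath pair, 1 of 2 passed. Ropn1l, a protein with the docking domain of protein kinase A that binds the anchoring proteins of the sheath, had the highest value of the 61 genes. It stood at 3.54 and 3.11 on the experiment 1 arrays and at 4.96 and 5.27 on the experiment 2 arrays, with a fitted value of 4.63 ± 0.52 (SE, adjusted p = 0.0101, limma). Akap4, the main anchoring protein of the sheath, differed between sets of arrays. On the HF4 with HF0 arrays the value was 2.68 and 2.70 in experiment 1 but -0.05 and 0.56 in experiment 2. The 8 arrays of another date of experiment 2, none holding both groups, gave 2.49 for HF4 over HF0. The fitted 1.88 ± 0.41 (SE, adjusted p = 0.0737, limma) did not pass.

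Of the tektins, 1 of 5 passed, and the median was 0.54. Tekt3, a filament protein of the doublet wall, stood at 1.69, 1.76, 3.13 and 3.24 on the 4 arrays, all positive, and at 2.57 ± 0.25 in the fit (SE, adjusted p = 0.00859, limma). Tekt1 had smaller values of 0.73, 0.71, 0.29 and 0.72 on the same arrays, and 0.66 ± 0.22 in the fit (adjusted p = 0.303, limma). Tekt4 lay on both sides of 0, at 0.20, 0.58, 0.21 and -0.39, and at 0.02 ± 0.19 in the fit. Tekt5 stood at 0.00 in experiment 1 and 1.08 in experiment 2, so its 0.54 ± 0.26 came from the second experiment.

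Of the 4 pore subunits of CatSper, 3 passed, with a median of 1.18. Catsper2 stood at 1.40 and 1.44 on the experiment 1 arrays and at 2.92 and 2.21 on the experiment 2 arrays, with a fitted 2.15 ± 0.29 (SE, adjusted p = 0.0154, limma). Catsper1 was positive on all 4 arrays as well, at 0.76, 1.07, 2.28 and 1.41, and fitted at 1.50 ± 0.16 (SE, adjusted p = 0.00951, limma). Catsper3 passed at 0.87 ± 0.15 (SE, adjusted p = 0.0348, limma). Catsper4 stood at 0.22, -0.15, 0.67 and -0.27, and its fitted 0.14 ± 0.13 did not pass. The channel needs all 4 subunits in mouse sperm, yet their log ratios ranged between 0.14 and 2.15.

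The dynein heavy chains had a median of 0.05, and 1 of 13 passed. Dnah8, an outer arm chain of the sperm tail, stood at 0.70, 1.20, 2.70 and 2.54 on the 4 arrays and at 1.94 ± 0.29 in the fit (SE, adjusted p = 0.0209, limma). Its experiment 2 arrays were both above its experiment 1 arrays. Dnah17, the other outer arm chain of sperm, stood at 0.05 ± 0.14 (adjusted p = 0.972, limma) and was not past the threshold. The outer arm chains of motile cilia, Dnah5, Dnah9 and Dnah11, stood at -0.04, 0.28 and 0.45, and 0 of the 3 passed. Dnah6, an inner arm chain, had 0.16, 0.40, 0.76 and 1.08 on the 4 arrays and 0.59 ± 0.16 in the fit (adjusted p = 0.164, limma). The remaining inner arm chains and Dnah14 lay between -0.15 (Dnah1) and 0.11 (Dnah14), and 6 of the 13 heavy chains were negative. Most heavy chains were read by 1 probe each. The 2 probes of Dnah6 stood at 1.17 ± 0.23 and 0.00 ± 0.14, while those of Dnah17 and Dnah2 lay between -0.21 and 0.16. Whether the values near 0 depend on the probe was not tested.

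The Spag genes share a history of naming and not a function, and 2 of 9 passed, with a median of 0.75. Spag6l, a protein of the central apparatus, stood at 1.81 and 1.68 on the experiment 1 arrays and at 3.97 and 4.14 on the experiment 2 arrays. Its fitted 2.95 ± 0.48 (SE, adjusted p = 0.0262, limma) was the highest of the family. Spag4 stood at 1.88, 2.06, 3.10 and 2.48 on the 4 arrays, all positive, without passing. Spag1, which helps to assemble dynein arms, passed at 1.03 ± 0.17 (SE, adjusted p = 0.0248, limma). Spag5, a mitotic spindle protein, had 1.30 ± 0.30 (adjusted p = 0.0857, limma). Spag9, a scaffold of kinase signalling made in many tissues, was at 0.58, 0.32, -0.37 and -0.09 on the arrays and 0.00 in the fit. Spag11a encodes a defensin-like peptide of the epididymis and no tail protein. It stood at -0.25, 0.16, 1.05 and 1.70 on the 4 arrays, with a fitted 0.75 ± 0.74 (adjusted p = 0.877, limma). Of the 7 central apparatus genes among the 61 (Spag6l, Spag16, Spag17, Cfap54, Cfap69, Cfap70 and Cfap74), 1 passed, and their median was 0.61.

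Of the 21 Cfap genes, 8 passed, and the median was 0.60. Cfap299 stood at 2.14, 2.22, 3.83 and 3.71 on the 4 arrays and at 3.54 ± 0.40 in the fit (SE, adjusted p = 0.0101, limma). Cfap45, a protein inside the doublet microtubules, stood at 2.16, 1.90, 2.91 and 3.27 and at 3.05 ± 0.27 in the fit (SE, adjusted p = 0.00733, limma). Both genes were positive on every array and higher in experiment 2 on the arrays that held HF4 and HF0. Cfap52, another inner protein of the doublets, passed at 1.88 ± 0.27, Cfap36 at 2.00 ± 0.13 and Cfap97d1 at 2.74 ± 0.43. Cfap69, of the central apparatus, had 0.66 and 0.23 on the experiment 1 arrays and 3.21 and 2.90 on the experiment 2 arrays. Its fitted 1.98 ± 0.44 (adjusted p = 0.0786, limma) did not pass. Cfap20dc was nearest to 0, at -0.35, 0.54, 0.39 and -0.39, and Cfap70 was the lowest of the 61 genes at -0.18 ± 0.16. Genes with known work outside motile cilia, among them Odf2, Spag5, Spag9 and Cfap20, numbered 10, of which 4 passed, with a median of 0.66.

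For 9 of the genes, separate probes could be compared, and in 4 of them the probes differed in value. One probe of Cfap57 stood at 1.89 ± 0.26 (SE, adjusted p = 0.0162, limma) in HF4 against HF0 and the other at 0.11 ± 0.16. The 2 probes of Cfap97 stood at 1.65 ± 0.20 (adjusted p = 0.0109, limma) and 0.30 ± 0.12, those of Cfap61 at 1.18 ± 0.23 (adjusted p = 0.04998, limma) and 0.02 ± 0.14, and those of Dnah6 at 1.17 ± 0.23 (adjusted p = 0.0526, limma) and 0.00 ± 0.14. In each of these 4 genes the other probe lay within 0.30 of 0. The probes of Cfap54, Cfap74, Dnah17, Dnah2 and Spag9 lay between -0.25 and 0.26. With probes tested separately, over 22889 features, 21 of the 61 genes had a probe past the threshold. The platform annotation names a transcript record for each probe, and it is the same record for both probes of Cfap97. Why the probes of a gene differed was not tested.

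**Figure D3:**
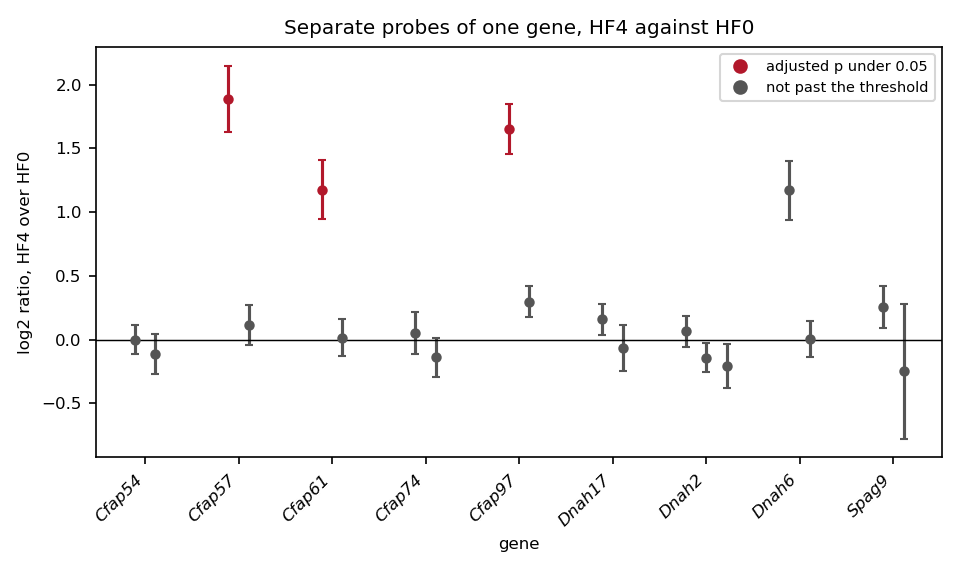
Log2 ratio of HF4 over HF0 (vertical axis) for each probe of the 9 genes with more than 1 probe (horizontal axis), bars showing the standard error. Probes of Cfap57, Cfap61 and Cfap97 past the threshold are red, at 1.89, 1.18 and 1.65, each beside a second probe between 0.02 and 0.30.

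Across the extracts, the median of the 61 genes over HF0 was highest in HF4, and few of them stood more than 1 above HF0 in HF1 and the REV groups. In experiment 1 the median over the 61 genes relative to HF0 was 0.12 in STD, 0.35 in HF3 and 0.51 in HF4. In experiment 2 it was 0.46 in STD, 0.06 in HF1, 0.39 in HF3 and 0.62 in HF4. In the reversal groups it was 0.04 in HF1-REV, 0.13 in HF3-REV and 0.05 in HF4-REV. The genes more than 1 above HF0 numbered 4, 14 and 21 in STD, HF3 and HF4 of experiment 1. In experiment 2 they numbered 20 in STD, 2 in HF1, 17 in HF3, 26 in HF4, 0 in HF1-REV and HF3-REV, and 4 in HF4-REV. Those 4 were Ropn1l (1.57), Tekt5 (1.19), Tekt3 (1.14) and Cfap36 (1.14). Of all 22879 features, 93 stood more than 1 above HF0 in STD, 421 in HF3 and 880 in HF4 of experiment 1. Experiment 2 gave 1104 such features in STD, 347 in HF1, 918 in HF3 and 1085 in HF4. Among its reversal groups HF4-REV had 738, HF1-REV 565 and HF3-REV 561. Whether the 61 genes differ from all features in these counts was not tested. All these values share the HF0 extract of their experiment and are no independent comparisons.

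**Figure D4:**
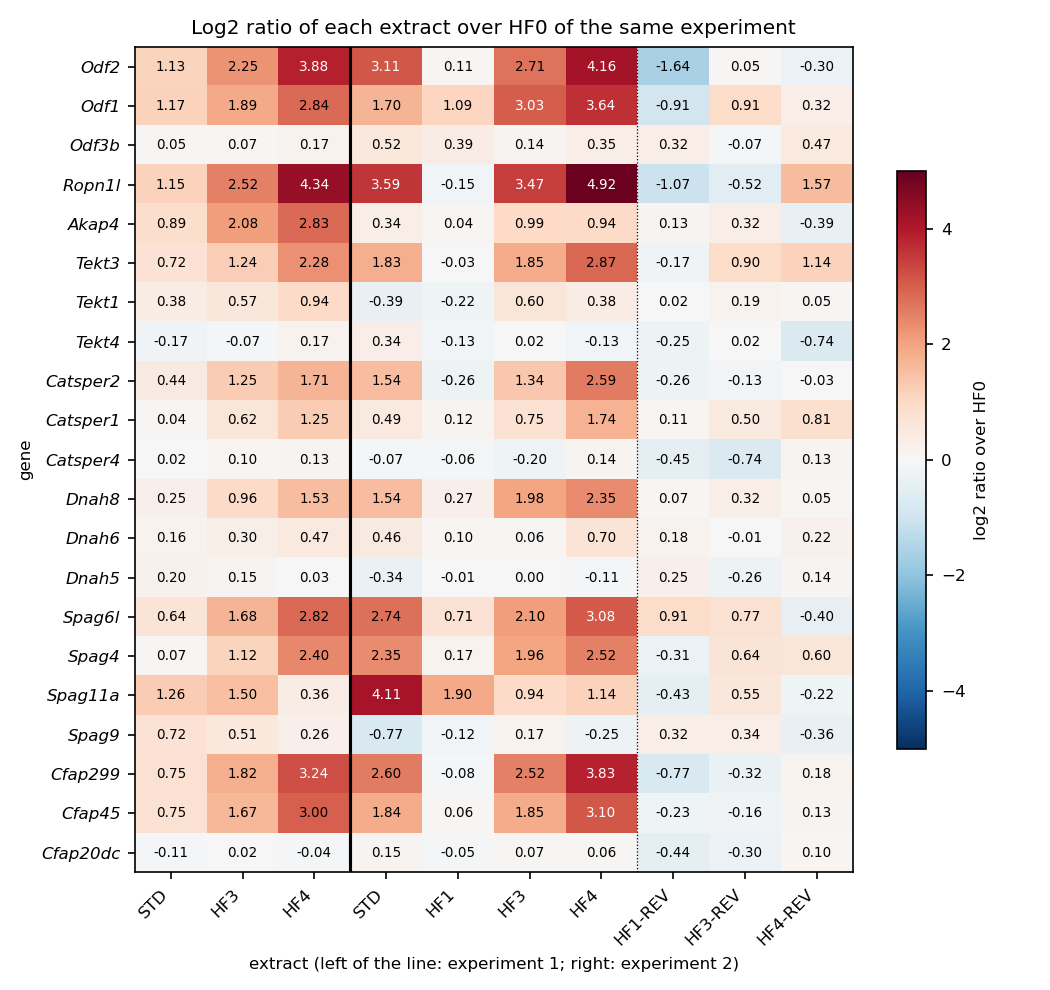
Log2 ratio of each group's extract over HF0 of the same experiment for 21 genes (rows, by family), in STD, HF3 and HF4 of experiment 1 and in STD, HF1, HF3, HF4 and the 3 REV groups of experiment 2 (columns; colour and number give the ratio). Odf2, Ropn1l, Cfap299 and Cfap45 are high in HF3, HF4 and experiment 2 STD, and Spag11a stands at 4.11 in experiment 2 STD.

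In HF4 against STD, 3 of the 61 genes passed (0.437% of all features), all positive. The median over the 61 genes was 0.35, with 0.53 in experiment 1 and 0.23 in experiment 2, and 0.00 over all features. On the 2 HF4 with STD arrays, both of experiment 1, Cfap36 stood at 2.06 and 2.52, and its fitted value was 1.58 ± 0.13 (SE, adjusted p = 0.0334, limma). Odf3l1 stood at 1.89 and 2.37 on these arrays and at 1.71 ± 0.18 in the fit (SE, adjusted p = 0.0402, limma). Catsper1 stood at 1.30 and 1.34 and at 1.23 ± 0.16 (SE, adjusted p = 0.0498, limma). Ropn1l had the highest fitted value, 2.26 ± 0.52, which did not pass (adjusted p = 0.146, limma). Its value was 3.18 within experiment 1 and 1.33 within experiment 2. Spag11a was the lowest at -1.94 ± 0.74 (adjusted p = 0.305, limma). Beside this result 4 of 32 male germ cell markers passed, 16 of 16 epididymis markers and 13 of 14 adipocyte markers were negative, and their part in it was not tested. The count was 0 without any 1 of the experiment 1 pairings HF3 with HF0, HF3 with STD, HF4 with HF3 or HF4 with STD, and 1 without the first or the fourth HF0 with STD array of experiment 2. Without each of these experiment 1 pairings 0 of all features passed too.

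HF0 against STD differed between the experiments for several of these genes. The median over the 61 genes was -0.29, with -0.12 in experiment 1 and -0.46 in experiment 2, against 0.01 over all features, and 50 of the 61 genes were negative. None passed in limma (0% of all features did, and 0 of the 61 genes with a robust prior). At an unadjusted p under 0.05 there were 17 genes, all negative, and 7.36% of all features. Without all 3 HF3 pairings of experiment 1 the median was -0.22 and 1 gene was under that p. On the 4 HF0 with STD arrays of experiment 2, Ropn1l stood at -3.42, -3.76, -3.71 and -3.46, while its 2 arrays of experiment 1 stood at 0.53 and 0.17. The values of Odf2 were -3.05, -3.25, -2.89 and -3.27 on the experiment 2 arrays, against 0.20 and -0.32 on those of experiment 1. In the least squares fit of experiment 1, which the pairings with HF3 and HF4 also enter, STD stood 1.15 (Ropn1l) and 1.13 (Odf2) over HF0. These fitted values thus differ from the HF0 with STD arrays of that experiment. The arrays of the experiments did not overlap for either gene, and both genes were negative on all 4 arrays of experiment 2. Spag11a, the epididymal gene, was negative in both, at -4.17, -5.23, -3.43 and -3.60 in experiment 2 while the experiment 1 arrays gave -1.90 and -1.49. Spag9 stood at 0.75, 0.80, 0.80 and 0.74 in experiment 2, but its 2 arrays of experiment 1 gave -0.51 and -0.76, so its sign differed with the experiment. The median over HF0 of 16 epididymis markers was 1.29 in STD of experiment 1 and 4.53 in STD of experiment 2, and that of 32 male germ cell markers 0.47 and 1.83; their part in the result was not tested.

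In HF4 against HF4-REV, which differ in the diet of the last generation, 19 of the 61 genes passed (11.2% of all features, 7.35% on the positive side), all positive. The REV group is 1 extract and was assumed to vary like the others. The median over the 61 genes was 0.57, against 0.03 over all features. On the 2 arrays that held both groups, Odf2 stood at 4.59 and 4.34, with a fitted 4.67 ± 0.58 (SE, adjusted p = 0.0142, limma). Odf1 stood at 3.30 and 3.36 and at 3.23 ± 0.33 in the fit (SE, adjusted p = 0.0124, limma). Ropn1l differed between the arrays, at 5.83 and 0.88, and was fitted at 3.56 ± 0.67 (SE, adjusted p = 0.0285, limma). Spag6l (2.72 and 4.25 on the arrays), Cfap299 (3.33 and 3.98), Cfap45 (2.81 and 3.12), Catsper2 (2.32 and 2.91) and Dnah8 (2.36 and 2.25) also passed. So did Odf4, Cfap69 and Cfap53, with fitted values of 2.91, 2.56 and 0.85. Cfap20 had the most negative value at -0.75 ± 0.22, without passing (adjusted p = 0.0802, limma). The comparison shares the HF4 extracts with HF4 against HF0. Of the 32 male germ cell markers 28 passed here, 13 of 14 adipocyte markers were negative, and their part in the result was not tested. Without HF3 with HF0 of experiment 1 the count was 6, beside 1342 of all 22879 features. Without HF3 with STD of experiment 1 it was 1, beside 374 features. Without all 3 HF3 pairings of that experiment it was 0, beside 0 features.

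HF3 against HF3-REV had a median of 0.39 over the 61 genes, and 0 of them passed in limma (0.0874% of all features did, 0.0524% on the positive side; 21 genes were under an unadjusted p of 0.05, 20 of them positive, as were 15.4% of all features, and 0 passed with a robust prior). Without all 3 HF3 pairings of experiment 1 the median was 0.37 and 10 genes were under that unadjusted p. Ropn1l stood at 4.05 and 3.93 on the 2 arrays, Odf2 at 2.55 and 2.78 and Cfap299 at 3.17 and 2.51, all positive. The fitted value of Ropn1l was 4.01 ± 0.67 (SE, adjusted p = 0.0896, limma). Leaving out the first or the second of the 2 arrays put some of the genes past the threshold. The share of all features that passed in those settings is not given here. HF1 against HF1-REV had a median of 0.05, with 35 genes positive and 26 negative. There 0 of the 61 genes passed in limma (0% of all features; 0 with a robust prior; 3 genes under an unadjusted p of 0.05, where 3.59% of all features were), and 1 passed without the first HF1 with HF1-REV array. Odf1 stood at 2.09 and 1.91 and Odf2 at 1.74 and 1.77 on those arrays, with fitted values of 2.00 ± 0.37 and 1.76 ± 0.64. Whether the HF against REV difference changed between generations was tested over all features for each pair of generations, and 0 of 22879 features passed in any of the 3 tests in limma. The genes under an unadjusted p of 0.05 numbered 24 of 61 for HF4 against HF1 (18.4% of all features), 7 for HF3 against HF1 (7.77%) and 13 for HF4 against HF3 (16.7%).

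HF3 against HF0 had a median of 0.39 (0.35 in experiment 1 and 0.39 in experiment 2), with 51 genes positive. In limma 0 passed (0% of all features; 0 with a robust prior), and 25 genes were under an unadjusted p of 0.05, all positive, as were 7.80% of all features in either direction. The median was 0.17 with 6 such genes without HF3 with HF0 of experiment 1, 0.47 with 24 without HF3 with STD, and 0.29 with 7 without all 3 HF3 pairings. Odf1 stood at 3.18 and 3.53 on the HF3 with HF0 arrays of experiment 1 and at 3.31 and 2.72 on those of experiment 2, with a fitted 2.46 ± 0.26 (SE, adjusted p = 0.0946, limma). Its 4 arrays all lay above the fitted value. The HF3 with STD arrays of experiment 1, which enter the same fit, stood at -0.42 and -0.44. HF4 against HF3 had a median of 0.21 and 47 positive genes, and 0 passed in limma (0% of all features; 0 with a robust prior; 16 genes under an unadjusted p of 0.05, all positive, against 5.50% of all features). Without all 3 HF3 pairings of experiment 1 its median was 0.29, with 5 genes under that p. Ropn1l stood at 2.32 and 2.88 on the experiment 1 arrays of that pairing and at 1.82 and 1.10 on those of experiment 2. HF3 against STD had a median of 0.12, with 0 genes passed in limma (0% of all features; 0 with a robust prior; 7 genes under an unadjusted p of 0.05, as were 7.47% of all features). Its median was 0.00 without HF3 with HF0, 0.32 without HF3 with STD and 0.13 without all 3 HF3 pairings of experiment 1.

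HF1 stood close to HF0 for most of the genes. The median of HF1 against HF0 was -0.02, with 27 genes positive and 34 negative, and 0 passed in limma (0% of all features; 0 with a robust prior; 0 of the 61 genes under an unadjusted p of 0.05, where 7.18% of all features were). Without all 3 HF3 pairings of experiment 1 its median was -0.09. The most positive fitted values were those of Spag11a, 1.51 ± 0.95 (1.98 and 1.74 on the 2 arrays), and Odf1, 0.78 ± 0.33 (1.24 and 1.01), and the most negative was that of Cfap69, -1.02 ± 0.56 (-0.58 and -0.32). Their adjusted p in limma were 0.765, 0.689 and 0.744. Ropn1l stood at -0.07 and -0.31 and Cfap45 at 0.03 and -0.04 on the same arrays. In HF4 against HF1, 14 of the 61 genes passed (2.81% of all features), all positive, with a median of 0.53. Of the 32 male germ cell markers 18 passed here with a median of 3.08, and their part in the result was not tested. Ropn1l stood at 5.01 and 4.73 and Odf2 at 3.97 and 3.97 on the 2 HF4 with HF1 arrays, with fitted values of 5.27 ± 0.67 and 4.25 ± 0.58. Spag6l stood at 2.61 and -0.66, so the 2 arrays disagreed, and it did not pass (adjusted p = 0.103, limma). The count was 0 without HF3 with HF0, 0 without HF3 with STD, 9 without HF4 with HF3 and 0 without all 3 HF3 pairings of experiment 1. Across all features 0, 0, 347 and 0 then passed. HF3 against HF1 had a median of 0.24 and 47 positive genes, with 0 passed in limma (0% of all features; 0 with a robust prior; 22 genes under an unadjusted p of 0.05, against 9.12% of all features). Without all 3 HF3 pairings of experiment 1 its median was 0.29, with 13 genes under that p.

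Other genes of the sperm tail were measured beside the 61. Of 18 measured genes of the fibrous sheath and of sperm tail energy and signalling, 16 passed in HF4 against HF0, all positive, with a median of 2.51. Ldhc, the sperm form of lactate dehydrogenase, stood at 4.20, and Ppp3r2, the calcineurin subunit of sperm, at 3.58. Of 26 radial spoke, nexin link and doublet genes, 11 passed with a median of 0.65, led by Iqub (2.89), Ccdc65 (2.37) and Mns1 (2.24). Of 11 smaller dynein chains and assembly factors, 4 passed with a median of 0.68, among them Dynlrb2 (2.81) and Zmynd10 (1.11). Of 25 intraflagellar transport genes, which build both motile and primary cilia, 2 passed, Ift74 at 1.35 and Ift140 at 1.25, and the median was 0.20. Of 14 regulators of ciliated cells and spermatids, 4 passed with a median of 0.40.

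Markers of other cell types moved with these results, and their part in the results was not tested. Of 32 male germ cell genes, 27 passed in HF4 against HF0, all positive, with a median of 2.87 and a range from -0.11 to 4.66. They included Meig1 (4.66 ± 0.51), Crisp2 (4.65 ± 0.19) and Mael (4.60). The list shares Ldhc, Pgk2, Smcp and Hspa1l with the fibrous sheath list. Its median over HF0 was 0.47 in STD, 1.47 in HF3 and 2.65 in HF4 of experiment 1. In experiment 2 it was 1.83 in STD, 0.07 in HF1, 2.16 in HF3 and 3.38 in HF4. It was -0.21 in HF1-REV, 0.12 in HF3-REV and 0.02 in HF4-REV. In HF4 against HF4-REV their median was 3.26, and in HF4 against STD 4 passed with a median of 1.49.

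The other marker lists gave smaller values in HF4 against HF0. Of 11 multiciliated epithelium genes 1 passed, with a median of 0.47. None of 10 Sertoli cell genes (median -0.06), 6 Leydig cell genes (0.42), 16 epididymis epithelium genes (0.33) and 14 adipocyte genes (0.07) passed there. In HF4 against HF4-REV, 13 of the 14 adipocyte genes were negative with a median of -0.64 and 1 passed, and 2 of the 6 Leydig cell genes passed, both positive. The adipocyte median was -0.49 in HF4 against STD (13 negative, 1 passed) and -0.59 in HF4 against HF1 (14 negative, 1 passed). The epididymis genes were highest over HF0 in STD, where Spag11a stood at 1.26 in experiment 1 and 4.11 in experiment 2. In HF4 against STD all 16 epididymis genes were negative with a median of -2.36, and 0 passed. Since the values are ratios and not intensities, whether the defining markers of any of these cell types are at or near background could not be read.

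**Figure D5:**
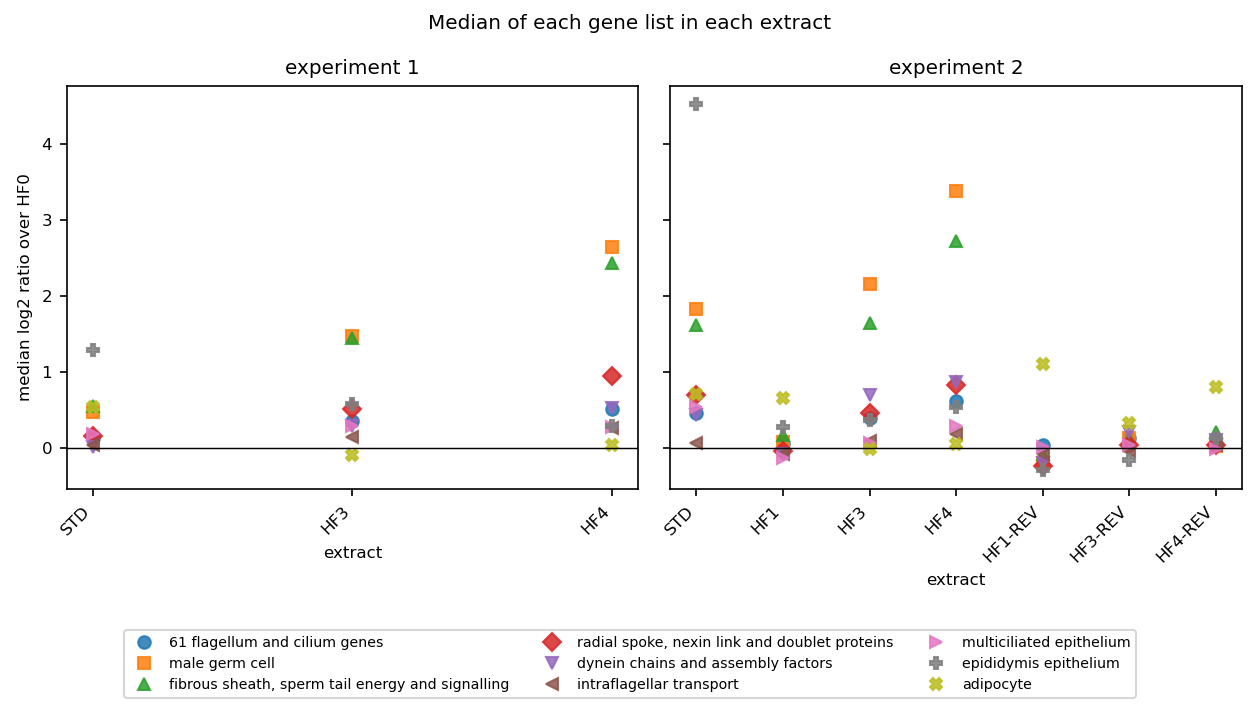
Median log2 ratio over HF0 of the same experiment (vertical axis) of the 61 genes and of 8 other gene lists (symbols) in each extract (horizontal axis), experiment 1 on the left and experiment 2 on the right. The male germ cell list runs from 0.47 in STD to 2.65 in HF4 of experiment 1 and reaches 3.38 in HF4 of experiment 2, the 61 genes reach 0.51 and 0.62, and the epididymis list is highest in STD of experiment 2 at 4.53.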

How the data were processed

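RNA of epididymal fat was compared on 34 2-colour arrays. The authors deposited 1 log ratio, taken here as log2, for each of 25344 probes and each array; the highest value, 7.99, exceeds the 4.82 that scanner intensities allow with base 10, while a natural log cannot be told apart from log2, and no value was turned into a fold. The sources used here do not give the background correction, the normalization or the numerator dye. The number of arrays limits the precision.

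Probes were named through the platform annotation and current symbols by gene ID (21082 with 1 symbol, 30 with several, 4232 with none), and probes of a gene were averaged. Each array was centred on its median. Ratios were turned for dye and swaps averaged. A least squares fit over the pairings of an experiment gave its group values, set against the mean of HF4, HF3, HF0 and STD. Each such group value is called an extract, although the labels do not say that its arrays hold the same RNA or animals. The 12 values were fitted in R 4.3.3 with limma 3.58.1 (experiment as block, eBayes, 3 residual and 3.16 prior degrees of freedom), with Benjamini-Hochberg adjustment over 22879 features and a threshold of 0.05. HF4, HF3, HF0 and STD have n = 2. HF1 and the REV groups have n = 1 and were taken to vary as the rest do; against them, HF4, HF3 and HF0 enter as means of both experiments. Where an experiment's own value is given, it comes from that experiment's least squares fit. An array left out was dropped before its pairing was averaged.

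On simulated data over 22879 features, HF4 against HF0 recovered 25 of 100 features changed by 1 and 95 of 100 changed by 2, with 6 false calls; HF4 against STD recovered 28 and 93, with 10. Preparation, motif counts and figures used Python 3.11.15, numpy 2.4.6, pandas 2.3.3 and matplotlib 3.10.9.

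The genes, the gene lists and the tests were chosen with earlier results of these data known. Per-array values are given for the 2 genes of each family with the largest absolute value in HF4 against HF0, the 1 nearest to 0, and Spag11a (Spag11b was not analysed here); up to 3 genes past the threshold were named from each other list. Further genes in HF4 against STD, in the REV comparisons and Odf4, Cfap36, Odf3l1 and Cfap69 were picked after their values were seen.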

Additional observations from a re-analysis of the deposited data

How the results depend on the processing

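Counts below are of the 61 genes past the threshold. The settings that leave out a pairing or take each pairing as a replicate were chosen after seeing the data. The cause of each change was not tested. Arrays or pairings as replicates treat values that may share extracts as independent. The count over all features can change with the setting too, and it is not given for each. In HF3 against HF0, 447 features passed without HF0 with STD of experiment 1, where 0 passed in the main fit. For HF4 against HF0 (20 genes) the count was 38 with arrays as replicates, 34 with pairings as replicates, and 0 without HF3 with HF0, without HF3 with STD, or without all 3 HF3 pairings of experiment 1, while the median was 0.51 in experiment 1 alone and 0.67 without HF4 with HF0 of experiment 1. For HF4 against STD (3 genes) it was 6 with scale and 8 with quantile normalization, 2 with a robust prior, 30 with arrays and 14 with pairings as replicates, 18 without the STD extract of experiment 2, 10 without HF0 with STD and 5 without HF4 with HF0 of experiment 1, and 0 without HF3 with HF0, HF3 with STD, HF4 with HF3, HF4 with STD or all HF3 pairings of that experiment. For HF4 against HF1 (14 genes) it was 31 with arrays and 27 with pairings as replicates, 24 without the STD extract of experiment 2, 9 without HF4 with HF3, and 0 without HF3 with HF0, HF3 with STD or all HF3 pairings of experiment 1. For HF4 against HF4-REV (19 genes) it was 11 with quantile normalization, 29 without the STD extract of experiment 2, and 6, 1 and 0 without HF3 with HF0, HF3 with STD and all HF3 pairings of experiment 1. For HF3 against HF0 (0 genes) it was 3 with scale normalization, 34 with arrays and 17 with pairings as replicates, 14 without the STD extract of experiment 2, and 13 and 1 without HF0 with STD and HF4 with HF0 of experiment 1. For HF3 against HF3-REV (0 genes) it was 4 with scale and 5 with quantile normalization, 6 with arrays as replicates, 11 without the STD extract of experiment 2 and 8 without HF0 with STD of experiment 1. For HF3 against HF1 (0 genes) it was 21 with arrays and 3 with pairings as replicates, 11 without the STD extract of experiment 2 and 6 without HF0 with STD of experiment 1. For HF4 against HF3 (0 genes) it was 22 with arrays as replicates and 7 without the STD extract of experiment 2. For HF0 against STD (0 genes) it was 25 with arrays as replicates and 7 without HF0 with STD of experiment 1. For HF3 against STD and HF1 against HF0 (0 genes each) it was 2 and 3 with arrays as replicates, and the median of HF3 against STD turned to -0.08 in experiment 2 alone.

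Leaving out each array in turn gave 19 to 22 genes for HF4 against HF0, 1 to 4 for HF4 against STD, 11 to 17 for HF4 against HF1, 15 to 28 for HF4 against HF4-REV, 0 to 12 for HF3 against HF3-REV and 0 to 1 for HF1 against HF1-REV, and 0 for the other comparisons. No paired analysis was possible because replicate numbers here only name the arrays of a pairing, beyond the experiment, which is already a block in the fit. Of the values of named genes over the settings, 2066 kept their side of the threshold, 67 newly passed, 51 no longer passed, and 0 that had passed changed sign. Of the 21 named genes, 4 that did not pass in HF4 against HF0 (Cfap20dc, Spag9, Dnah5 and Tekt4) lay on both sides of 0 over the settings.

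Within the dates that the labels give, the median over the 61 genes for HF4 against HF0 was 0.512 (12 arrays of experiment 1), 0.547 (8 arrays of experiment 2, none holding both groups) and 0.614 (4 arrays of experiment 2, 2 of them holding both). Changes of 1 log2 unit were recovered in only 25 of 100 simulated features, so small changes are mostly beyond this design. Without intensities, dim spots could not be left out.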
